A study of Homo sapiens with 24 samples.

Results

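The p53 target genes described here are 47 genes that the transcription factor p53 is known to activate, leaving out the cell cycle inhibitors, the MDM2 loop, the BCL2 family and the death receptors. They were chosen by name, as the rows of the deposited count tables whose NCBI Gene identifier carries one of the listed symbols, and all 47 were found among 28395 rows. Their levels were read from 3′ RNA sequencing, a method that counts the poly(A) end of transcripts, in MM1.S and JJN3. Both are established human cell lines of multiple myeloma, a cancer of plasma cells. Each line was treated for 24 h with vehicle, with CX-5461 at 500 nM, with panobinostat at 50 nM or with both drugs at these doses, giving 8 groups of 3 libraries. CX-5461 inhibits RNA polymerase I, which transcribes the ribosomal RNA genes, and panobinostat inhibits histone deacetylases. The design text calls MM1.S p53 wild type and JJN3 p53-null, while the genotype field of every library reads wild type. Each p53 state is thus represented by 1 line, so p53 state and every other difference between the lines cannot be told apart. In 2 JJN3 libraries of the CX-5461 group the treatment field gives the compound another last digit than the title does, and the title was followed.

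Total counts ranged from 4751893 to 7305069 per library with a median of 5551875. Whether replicates were separate cultures is not said in the labels, and p-values therefore rest on a spread between libraries that may be technical. Levels are given as CPM, the usual unit of counts relative to the scaled size of the library within a line, and differences as log2 fold changes ± their standard error. A gene is said to have risen or fallen where its edgeR adjusted p was under 0.05.

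p53 is a transcription factor that is held at a low level by the ubiquitin ligase MDM2 and accumulates when DNA is damaged or when ribosome assembly fails, since free ribosomal proteins then bind MDM2. It binds DNA as a tetramer at sites made of paired half-sites and switches on genes that arrest the cell cycle, repair DNA, change metabolism or start cell death.

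TP63, a p53 relative that is not a member, was at 2.79, 3.28 and 3.16 CPM in JJN3 vehicle libraries and at 5.34, 4.91 and 5.71 with both drugs, where it rose (0.79 ± 0.27 on the log2 scale, edgeR adjusted p = 0.028). The relative TP73 did not share this, at a mean of 2.88 CPM with vehicle and 2.54 with both drugs in JJN3. The summed level of 9 plasma cell markers was 6218 to 6585 CPM in MM1.S vehicle libraries, 4991 to 5158 with CX-5461, 502 to 701 with panobinostat and 418 to 477 with both. In JJN3 these sums were 1507 to 1595, 1321 to 1440, 899 to 1001 and 577 to 606 CPM, with CD79A under 1 CPM in both lines and CD38 under 1 CPM in JJN3. XBP1 was the largest part of the JJN3 sum, at a mean of 853 CPM with vehicle. With panobinostat and with both drugs the JJN3 means of XBP1, SDC1, TNFRSF17, IRF4 and MZB1 were lower than with vehicle. PRDM1 went the other way, from a mean of 47.1 CPM to 61.9 with panobinostat and 64.6 with both. SLAMF7 had a mean of 4.34 CPM with vehicle and 5.73 with panobinostat, and was not higher with both. Marker sums of T, mature B and myeloid cells were at most 6.27 CPM in any library, the epithelial sum was at most 1.28 CPM in MM1.S and 21.0 CPM in JJN3, and the fibroblast sum, nearly all COL1A1, was at most 22.0 CPM and highest in the groups given panobinostat. What part these marker shifts have in the values of the members was not tested.

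Promoter sequences from RefSeq show where such half-sites lie close to the start of transcription of the members (GRCh38.p14, windows of 300 bases from 250 before to 50 after each start). Of 47 members 39 had a window, and 9 of these held the p53 half-site. It was searched as a pattern of 10 bases: 3 purines, C, 2 bases that are each A or T, G and 3 pyrimidines. The pattern as a whole is its own reverse complement, so a match on either strand is a match on both, while a single matching sequence need not read alike on both. That is 9 of 57 member windows (15.8%), beside 6.63% of all 35116 windows. The stretches below, 30 bases with the half-site in capitals, are those of members whose values in every library follow, and of BLCAP, the 1 member with a half-site that CX-5461 did not raise past the test in MM1.S.
DDB2: ggtttGAACAAGCCCtGGGCATGTTTggcg
FDXR: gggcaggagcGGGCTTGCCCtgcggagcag
AEN: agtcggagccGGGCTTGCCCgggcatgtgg
RPS27L: ggcctagagcAGACAAGCCCgccccgccgc
PLK2: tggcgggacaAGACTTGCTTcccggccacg
RAP2B: ggaacgcactGGGCATGCTCgccggggagg
BLCAP: tgggagaggaAGACAAGTCCgaggccgagc
They lie at chr11:47214974-47215003 (plus strand), chr17:74872986-74873015 (minus strand), chr15:88621296-88621325 (plus strand), chr15:63157517-63157546 (minus strand), chr5:58460199-58460228 (minus strand), chr3:153162155-153162184 (plus strand) and chr20:37524427-37524456 (minus strand), and are written 5′ to 3′ on the strand of the gene. Counted in bases from the first base of the transcript as 0, the capitals run from 5 to 25 in DDB2, -11 to -2 in FDXR, -34 to -25 in AEN, -59 to -50 in RPS27L, -132 to -123 in PLK2, -61 to -52 in RAP2B and 7 to 16 in BLCAP. DDB2 held 2 half-sites separated by 1 base, which is the arrangement of a full p53 site, and 0.308% of all windows held 2 half-sites. In MM1.S given CX-5461, 8 of the 9 members with a half-site rose, of the 27 tested members whose windows had none 16 did, and of the 7 tested members without a window 6 did. Among all genes 9.68% rose, and that share was not computed for genes with and without a half-site, so no effect of the half-site is read from this split. ABCA12, which had a half-site, and PLK3, which had none, were tested through the CX-5461 group alone. The half-sites are matches of letters in a short window and not measured binding, and many known p53 sites lie further from the start or in introns, outside these windows.

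**Figure D1:**
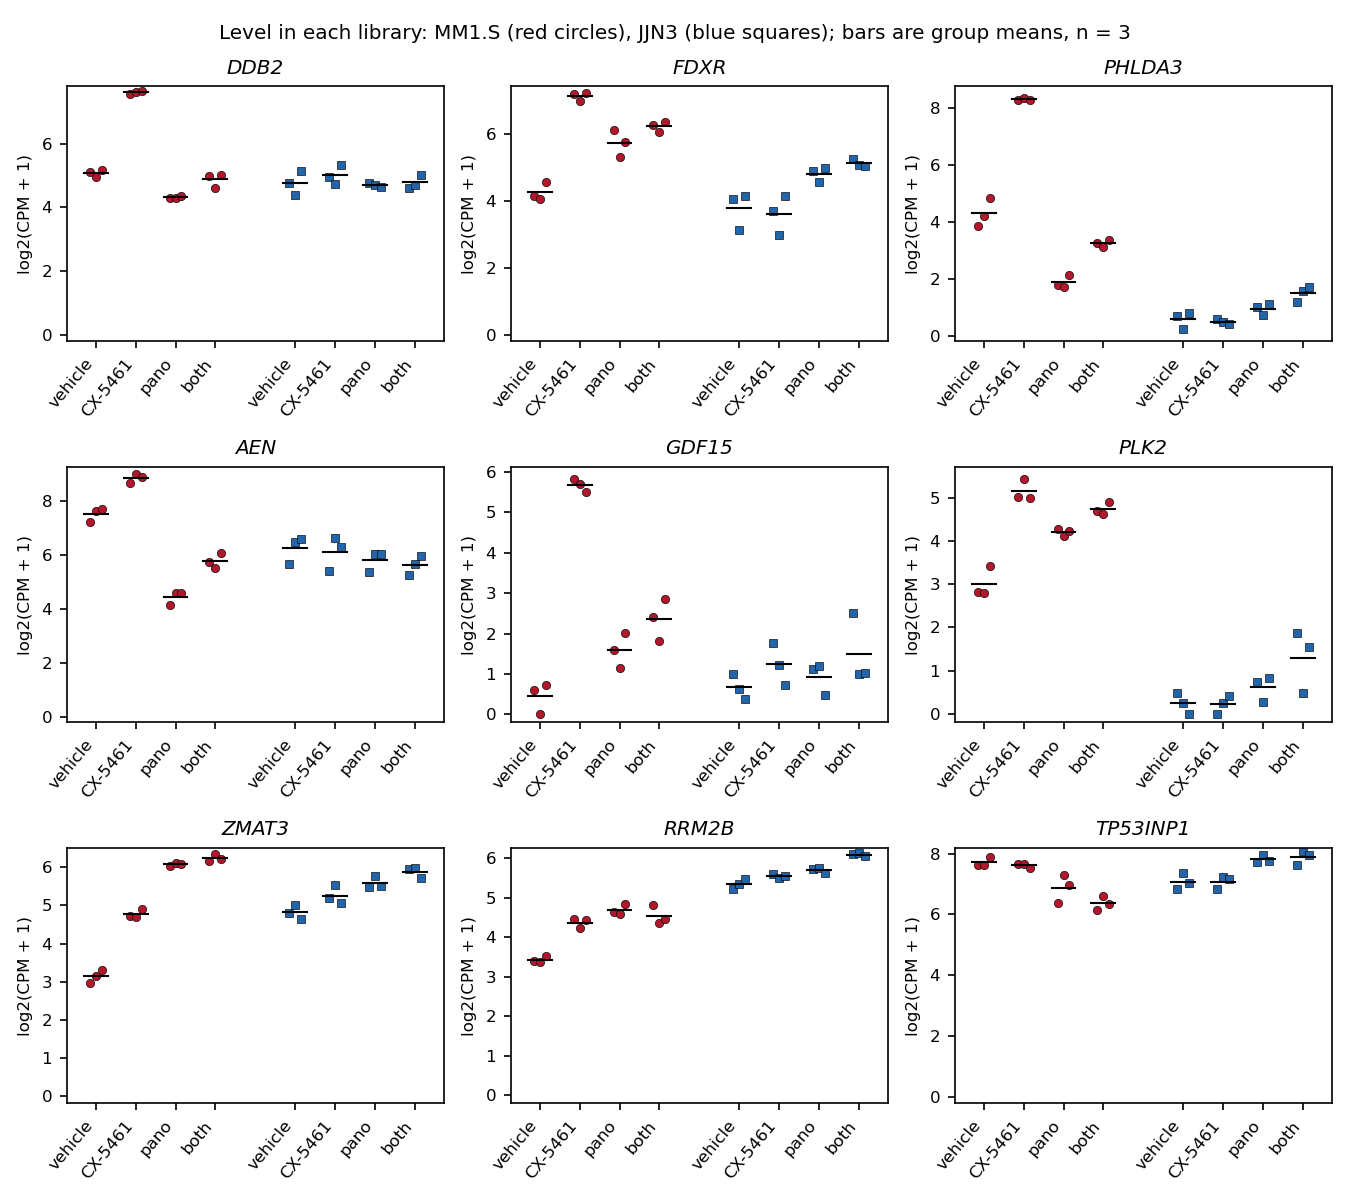
Level of 9 members in each library, as log2(CPM + 1) on the vertical axis, by treatment on the horizontal axis, with MM1.S as red circles, JJN3 as blue squares and a bar at the mean of these log values (n = 3). In MM1.S the CX-5461 libraries of DDB2, FDXR, PHLDA3, AEN and GDF15 stand above those of every other group, while ZMAT3 and RRM2B are as high or higher with panobinostat.

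CX-5461 raised most of the p53 targets in MM1.S and lowered none. Of 43 members with enough counts to be tested 30 rose (69.8%) and 0 fell, where 16.7% of all 12030 genes were called, 9.68% higher and 7.06% lower. The median log2 fold change was 1.22 over the tested members and 0.01 over all genes. All 30 members that rose had every CX-5461 library above every vehicle library. Such separation is stated below for genes mostly named by their small p in this same comparison. It therefore describes their levels and adds no evidence to the calls. The share of all genes with such separation was not counted. In bulk libraries of this kind a change in the share of cells that express a gene and a change per cell cannot be told apart. Of the 43, 36 reached the count cut-off in all 4 groups, and 24 of these rose. PLK3 and ABCA12 reached it in the CX-5461 group alone, so that their being tested already required a difference. KITLG and APAF1 reached it in 2 groups each, vehicle not among them. SPATA18, LIF, PGF and EPHA2 reached the cut-off in too few libraries and were not tested.

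The 5 genes of DNA repair and nucleotide supply all rose in MM1.S given CX-5461. Of all genes 9.68% rose, and this share stands beside the count of each role below. DDB2 (NCBI Gene 1643), which recognises ultraviolet damage for nucleotide excision repair, stood at 33.8, 30.0 and 35.0 CPM with vehicle and at 188, 197 and 199 with CX-5461, a log2 fold change of 2.56 ± 0.11 (adjusted p = 1.54e-14). XPC (7508), the damage sensor that acts with it, went from 28.6, 24.6 and 29.5 to 61.6, 61.4 and 70.5 CPM (1.22 ± 0.11, adjusted p = 2.14e-08). The treated libraries of both sensors lay well clear of vehicle and close to one another. GADD45A (1647), a stress protein of repair and growth arrest, rose from 35.6, 36.6 and 48.5 to 133, 174 and 145 CPM (1.90 ± 0.14). RRM2B (50484), the ribonucleotide reductase subunit that supplies deoxynucleotides for repair, rose from 9.59, 9.43 and 10.5 to 21.0, 17.8 and 20.6 CPM (1.00 ± 0.17). The translesion polymerase POLH showed the smallest change of the 5, 0.85 ± 0.10, and its groups did not overlap either.

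Of 7 genes of metabolism and redox balance 5 rose. FDXR (2232), which passes electrons to mitochondrial cytochrome P450 enzymes, increased most, from 16.7, 15.6 and 22.7 to 146, 126 and 149 CPM (2.92 ± 0.18, adjusted p = 4.22e-10). TIGAR (57103), a phosphatase that slows glycolysis, went from 11.3, 7.02 and 13.4 to 34.3, 42.7 and 36.9 CPM (1.81 ± 0.18). TP53I3 (9540), a quinone oxidoreductase, went from 5.06, 4.39 and 4.65 to 17.8, 13.5 and 19.9 CPM (1.85 ± 0.22). In each of these 3 genes the lowest treated library was above the highest vehicle library, which their choice by smallest p in this comparison favours. The sestrins SESN1 and SESN2 restrain the growth kinase complex mTORC1, and SESN1 rose by 0.93 ± 0.14, as did the hydrolase CMBL by 0.68 ± 0.22. SESN2 (83667) was at 28.4, 150.4 and 37.3 CPM with vehicle, where replicate 2 stood far above the others, and at 151, 198 and 191 with CX-5461. Its log2 fold change of 1.35 ± 0.53 did not pass (adjusted p = 0.13), whereas without vehicle replicate 2 it was 2.45 (adjusted p = 1.61e-10). CES2, a carboxylesterase, did not pass, at 56.3, 62.7 and 55.1 CPM with vehicle and 59.6, 54.7 and 62.3 with the drug. The CMBL call was lost without vehicle replicate 1 or 2 or CX-5461 replicate 1 or 3 (adjusted p up to 0.132).

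Genes of cell death and survival parted into those that rose strongly and those that did not move past the test, 4 and 4 of 8 tested. PHLDA3 (23612), which competes with the kinase AKT for membrane lipids, was at 13.4, 17.3 and 27.9 CPM with vehicle and 311, 330.2 and 309.8 with CX-5461 (4.01 ± 0.16, adjusted p = 2.05e-14). DRAM1 (55332), a lysosomal regulator of autophagy, went from 4.01, 5.04 and 5.81 to 24.9, 25.4 and 20.5 CPM (2.24 ± 0.23). AEN (64782), a nuclease that degrades DNA in apoptosis, went from 147, 193 and 204 to 405, 512 and 466 CPM (1.35 ± 0.14). These 3 genes share groups without overlap but not the size of the change, which spans 1.35 to 4.01. TRIAP1 (51499), a mitochondrial lipid transfer protein that favours survival, rose from 81.3, 90.3 and 83.8 to 157, 169.9 and 157 CPM (0.92 ± 0.11). PERP (64065), a membrane protein of desmosomes and apoptosis, did not pass, at 457, 392 and 365 CPM with vehicle and 394, 370.2 and 329 with CX-5461 (-0.15 ± 0.13, adjusted p = 0.451). The apoptosome core APAF1, the autophagy regulator TP53INP1 and BLCAP did not pass either. SPATA18, which takes part in the removal of damaged mitochondria, had 43 counts with CX-5461 and 2 with vehicle over the 3 libraries, a ratio of 17.1 after scaling by library (95% interval from counting error alone, 4.45 to 146).

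Among secreted ligands and surface proteins 4 of 6 tested members rose. GDF15 (9518), a stress cytokine, was at 0.523, 0 and 0.664 CPM with vehicle and at 56.0, 50.7 and 44.6 with CX-5461 (6.81 ± 0.35, adjusted p = 8.62e-13), resting on 7 vehicle counts in all. EDA2R (60401), a receptor of the tumour necrosis factor family, went from 3.31, 4.82 and 6.80 to 15.5, 18.2 and 16.7 CPM (1.74 ± 0.24). NINJ1 (4814), which ruptures the membrane of dying cells, went from 5.23, 5.70 and 6.80 to 19.4, 18.9 and 17.8 CPM (1.65 ± 0.20). All treated libraries of these 3 genes exceeded all vehicle libraries. KITLG (4254), the ligand of the receptor KIT, was low throughout, at 0.349, 1.10 and 0.830 CPM with vehicle and 2.97, 1.85 and 2.53 with CX-5461 (1.70 ± 0.50, adjusted p = 0.0189), and its call was lost without vehicle replicate 1 or 3 or CX-5461 replicate 1 or 3 (adjusted p up to 0.115). The tetraspanin CD82 (3732) was at 244, 328 and 263 CPM with vehicle and 369, 316 and 343 with CX-5461, overlapping groups (0.30 ± 0.11, adjusted p = 0.0726), and it passed without vehicle replicate 2 (0.43, adjusted p = 0.0154) or without panobinostat replicate 1 (adjusted p = 0.0381). The growth factor TGFA did not pass. The ligand and receptor genes too low to test had no count in any MM1.S vehicle library: PGF, an angiogenic factor, had 32 counts with CX-5461 (at least 8.48-fold higher, against 3 counts over the group), LIF, a cytokine of the interleukin-6 family, had 11 (at least 2.91-fold) and EPHA2, an ephrin receptor, had 6 (at least 1.59-fold).

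Of 7 genes of proliferation control 5 rose. PLK2 (10769), a polo-like kinase of the stress response, went from 6.11, 5.92 and 9.79 to 31.3, 42.6 and 31.2 CPM (2.25 ± 0.19, adjusted p = 2.28e-09). SERTAD1 (29950), a cofactor of CDK4 and E2F, went from 6.11, 5.04 and 9.79 to 17.2, 17.4 and 20.2 CPM (1.36 ± 0.22). PTP4A1 (7803), a prenylated phosphatase, went from 324, 350.0 and 353 to 616, 651 and 659.8 CPM (0.91 ± 0.09). The change of PTP4A1 was under 1 log2 unit but the libraries of each group lay within a narrow band. E2F7 (144455), a repressor of E2F targets, rose from 10.6, 12.5 and 10.8 to 22.4, 24.6 and 20.4 CPM (0.99 ± 0.23). PLK3, tested through the CX-5461 group alone, rose as well, from a mean of 0.891 to 3.44 CPM. BTG2 (7832), an antiproliferative partner of mRNA deadenylases, had 229.9, 224 and 233 CPM with vehicle and 278, 299 and 262 with CX-5461 and fell just short (0.29 ± 0.10, adjusted p = 0.0513), although the groups did not overlap and it passed without panobinostat replicate 1 or 2 (adjusted p = 0.0225 and 0.0305). SFN, the 14-3-3 protein that holds cells before mitosis, did not pass.

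The ubiquitin ligase genes RNF19B and FBXO22 rose and FBXW7 did not pass. RNF19B (127544) went from 3.31, 1.75 and 2.32 to 8.76, 8.97 and 6.18 CPM (1.66 ± 0.28, adjusted p = 0.000113). FBXO22 (26263), the substrate receptor of a ligase that acts on p53 and on histone demethylases, went from 8.90, 6.36 and 5.14 to 10.8, 10.4 and 13.2 CPM (0.75 ± 0.23). FBXW7 (55294), which marks MYC and cyclin E for degradation, was at 139, 159 and 125 CPM with vehicle and 133, 142 and 131 with the drug, with overlapping groups. The FBXO22 call was lost without vehicle replicate 2 or 3 or CX-5461 replicate 3 (adjusted p up to 0.157).

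Of 7 members with other functions 5 rose. ARVCF (421), a catenin of cell junctions, went from 0.174, 0 and 0.498 to 15.6, 23.1 and 21.1 CPM (6.23 ± 0.44, adjusted p = 2.69e-10), with 4 vehicle counts in all. RPS27L (51065), a variant ribosomal protein that binds MDM2, went from 217, 206 and 234 to 642, 495 and 550.2 CPM (1.36 ± 0.11). ZMAT3 (64393), an RNA-binding regulator of splicing, went from 6.80, 7.89 and 8.79 to 25.6, 25.1 and 29.1 CPM (1.76 ± 0.15). All 3 had groups without overlap, and ARVCF had almost no reads without drug. RAP2B (5912), a small GTPase, rose from 95.4, 82.0 and 90.9 to 159, 175 and 148 CPM (0.84 ± 0.11). The lipid transporter ABCA12, tested through the CX-5461 group alone, had 70 counts against 1, a ratio of 55.6 (counting interval 9.66 to 2228). SUSD6 (9766), at 58.1, 54.4 and 60.9 CPM with vehicle and 61.2, 70.9 and 54.2 with the drug, and ANKRA2 did not pass. RPS27L has a close paralogue, RPS27, so reads may be shared between the copies and its counts are uncertain.

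The genes of the p53 pathway outside the 47 were read beside them. CX-5461 raised 6 of 7 core effectors in MM1.S and lowered 0, where 16.7% of all genes were called. Those that rose included the cell cycle inhibitor CDKN1A (3.99 ± 0.14) and the pro-apoptotic BBC3 (2.49 ± 0.11). CCNG1 did not pass. Of 15 regulators of p53 3 rose and 2 fell: MDM2 (2.06 ± 0.14), the phosphatase PPM1D (1.51 ± 0.13) and the checkpoint kinase CHEK1 (0.48 ± 0.12) were higher, and the deubiquitinase USP7 (-0.57 ± 0.10) and the ribosomal protein gene RPL5 (-0.41 ± 0.09) were lower. With panobinostat in MM1.S 5 core effectors rose and 1 fell, and 5 regulators rose and 7 fell, where 69.8% of all genes were called, so most genes moved there. In JJN3, CX-5461 moved 0 of 7 core effectors and 0 of 15 regulators past the test, where 0.0% of all genes were called. Added to panobinostat in JJN3, it raised CDKN1A (0.80 ± 0.18, edgeR adjusted p = 0.0483) and no other core effector or regulator, where 0.184% of all genes were higher. The effect of CX-5461 was lower in JJN3 than in MM1.S for 5 core effectors and 2 regulators, where 1.32% of all genes were called. With the replicate number as a block, given because JJN3 libraries of the same number deviate together, MDM4, an inhibitor of p53, was lower with CX-5461 in JJN3 (-0.61 ± 0.23, adjusted p = 0.832, or 0.00564 with the block). The block called 1.38% of all genes in that comparison. The block also brought the differences between lines of BAX and MDM4, lower in JJN3, and of USP7, higher in JJN3, past the test (adjusted p = 0.032, 0.00193 and 0.00557), where 4.52% of all genes were called. For CX-5461 added to panobinostat in JJN3, the block brought CCNG1, CDKN2A, MDM4 and RPL11, all lower, past the test (edgeR adjusted p = 0.022, 0.0172, 0.0169 and 0.00792), where 12.3% of all genes were called.

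Panobinostat moved the p53 targets of MM1.S in both directions. Of 43 tested members 19 rose and 13 fell, 74.4% called, where 69.8% of all genes were called, 36.9% higher and 32.9% lower, so the share of members was near that background. The median member was at 0.20 and the median gene at 0.07. This comparison shares its vehicle libraries with the one above, and the values of each gene are set side by side without a count of shared calls. PHLDA3 had 2.41, 2.28 and 3.39 CPM with panobinostat (-2.86 ± 0.26), beside a rise of 4.01 with CX-5461. AEN had 16.5, 22.8 and 22.8 CPM (-3.13 ± 0.16, adjusted p = 3.09e-13). Both apoptosis genes fell far below their vehicle range. DDB2 at 18.5, 18.6 and 19.6 CPM (-0.81 ± 0.13), TRIAP1 at 58.7, 43.4 and 48.0 (-0.77 ± 0.11) and NINJ1 at 2.21, 3.33 and 1.69 (-1.28 ± 0.27) fell too. PERP at 161, 246 and 205 CPM (-0.99 ± 0.13) and CD82 at 151, 140.4 and 118 (-1.03 ± 0.12), which CX-5461 had not moved past the test, fell likewise. The remaining 6 falls, in CMBL, POLH, RPS27L, SFN, TGFA and TP53INP1, ranged from -2.08 to -0.23, and the POLH call was lost without any 1 of 6 libraries (adjusted p up to 0.164).

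The members that rose with panobinostat included ZMAT3, at 64.6, 68.5 and 67.8 CPM (3.09 ± 0.14, adjusted p = 6.13e-16), above its level with CX-5461. ARVCF reached 6.03, 5.78 and 9.60 CPM (4.75 ± 0.53) and APAF1 rose from a mean of 0.734 to 5.64 CPM (2.90 ± 0.46). APAF1 reached the count cut-off only in the 2 groups given panobinostat, so that its being tested already required a difference. SERTAD1 at 31.8, 18.2 and 26.9 CPM (1.84 ± 0.22), TIGAR at 36.8, 33.3 and 28.4 (1.60 ± 0.19) and FDXR at 68.6, 38.5 and 52.9 (1.52 ± 0.18) rose as well. Within cell death genes the directions were mixed, with BLCAP above vehicle and PHLDA3 and AEN below it. PLK2 at 18.3, 16.5 and 17.7 CPM, RNF19B at 5.83, 8.41 and 6.96, RRM2B at 24.1, 22.9 and 27.7 and XPC at 41.6, 45.0 and 41.8 rose by 0.63 to 1.50. BLCAP at 78.8, 79.5 and 73.2 CPM and FBXW7 at 183, 206 and 181 rose by 0.67 ± 0.11 and 0.44 ± 0.10. GDF15 at 2.01, 1.23 and 3.01 CPM rose from near 0, and GADD45A, RAP2B, BTG2, ANKRA2, KITLG and ABCA12 made up the 19. The KITLG call was lost without vehicle replicate 1 or 3 or panobinostat replicate 2 or 3 (adjusted p up to 0.147).

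With both drugs, 16 members rose and 11 fell against vehicle in MM1.S (62.8% called), where 70.2% of all genes were called, 37.0% higher and 33.2% lower, a share of members again near the background. PHLDA3 had 8.51, 7.65 and 9.41 CPM and AEN 51.8, 44.7 and 66.4, both below vehicle (-1.21 ± 0.21 and -1.74 ± 0.15). DDB2, at 31.0, 23.6 and 31.4 CPM, overlapped vehicle. FDXR at 76.4, 65.5 and 82.3 CPM, ZMAT3 at 71.5, 80.1 and 73.0 and PLK2 at 24.8, 23.9 and 29.0 were above vehicle (2.01 ± 0.18, 3.25 ± 0.14 and 1.81 ± 0.19). The combination thus left some targets under their untreated level and others above it. GDF15 was at 4.35, 2.49 and 6.27 CPM, above vehicle and far below the 50.4 CPM of CX-5461 alone. BTG2, at 162, 169 and 153 CPM, was below vehicle (-0.50 ± 0.10), as were PERP (-1.40 ± 0.13) and CD82 (-0.81 ± 0.12). SUSD6, at 44.5, 51.5 and 40.0 CPM, fell by 0.35, a call lost without vehicle replicate 1 or 3 or replicate 1 or 3 of both drugs (adjusted p up to 0.121). The calls of ABCA12 and of FBXW7 (0.32 ± 0.10) were also lost without single libraries, FBXW7 without vehicle replicate 3 (adjusted p = 0.0754) and ABCA12 without vehicle replicate 1 or 3 or replicate 2 of both drugs (adjusted p up to 0.227).

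Set against CX-5461 alone, the combination lowered 31 of 43 members and raised 6, where 69.8% of all genes were called, 35.9% higher and 33.9% lower. The median member was at -1.03 and the median gene at 0.04. PHLDA3 (-5.22 ± 0.18), GDF15 (-3.54 ± 0.24), AEN (-3.09 ± 0.15) and DDB2 (-2.77 ± 0.11) were among those that fell. The CX-5461 libraries are the reference here, so naming members by their rise in the same libraries favours falls. The 6 members that rose were ZMAT3, APAF1, SERTAD1, ANKRA2, BLCAP and FBXW7. Of these APAF1 was tested through the groups given panobinostat.

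In cells given panobinostat, adding CX-5461 moved few p53 targets. Against panobinostat alone 5 of 43 rose and 2 fell (16.3% called), where 4.08% of all genes were called, 2.44% higher and 1.65% lower. The median over the members was 0.13 and over all genes 0.00, beside 1.22 and 0.01 for CX-5461 against vehicle, a comparison that shares no library with this one. PHLDA3 rose from 2.41, 2.28 and 3.39 to 8.51, 7.65 and 9.41 CPM (1.65 ± 0.29, adjusted p = 0.00191). AEN rose from 16.5, 22.8 and 22.8 to 51.8, 44.7 and 66.4 CPM (1.39 ± 0.17, adjusted p = 4.82e-05), about as much as without panobinostat (1.35 ± 0.14). Both started from a level far below vehicle. DDB2 (0.60 ± 0.13), RPS27L (0.58 ± 0.11) and TRIAP1 (0.41 ± 0.11) rose too, beside 2.56 ± 0.11, 1.36 ± 0.11 and 0.92 ± 0.11 without panobinostat. BTG2 fell from 263, 344 and 278 to 162, 169 and 153 CPM (-0.87 ± 0.10, adjusted p = 1.52e-05) and RAP2B from 112, 147 and 134 to 83.1, 96.7 and 90.2 (-0.54 ± 0.11). The call of DDB2 was lost without replicate 1 or 3 of both drugs (adjusted p up to 0.0681) and that of TRIAP1 without any 1 of 8 libraries (up to 0.216), while 13 members were called without panobinostat replicate 1, and DESeq2 called 11.

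The difference between the effects of CX-5461 with and without panobinostat, on the log2 scale the departure of the combination from additivity, was below 0 and called for 26 of 43 members and above 0 for 0. Among all genes 5.52% were called, 1.87% above and 3.65% below 0, and the medians were -1.15 for members and -0.02 for genes. All 5 repair genes were called below 0, DDB2 at -1.96 ± 0.17 and GADD45A at -1.77 ± 0.19. FDXR was at -2.43 ± 0.24 (adjusted p = 1.71e-06), GDF15 at -5.75 ± 0.63, ARVCF at -5.79 ± 0.58, PHLDA3 at -2.35 ± 0.38, DRAM1 at -2.30 ± 0.37 and PLK2 at -1.68 ± 0.25. The levels behind a departure below 0 differed between genes: PHLDA3 and DDB2 lay below vehicle with panobinostat alone, while ZMAT3 and SERTAD1 lay above vehicle with it. Of the 30 members that rose with CX-5461, 25 had a called departure, and AEN, CMBL, FBXO22, NINJ1 and PLK3 did not. The departure contains the difference between CX-5461 and vehicle from the same libraries, so picking members by that rise favours values below 0. The share of called departures among all genes that rose with CX-5461 was not counted. ABCA12, among the 25, had been tested through the CX-5461 group alone. For AEN the departure was 0.04 ± 0.21 (adjusted p = 0.952). Calls for E2F7, SERTAD1, KITLG, TRIAP1 and EDA2R were lost without 8, 7, 10, 10 and 1 of the 12 libraries left out in turn, for EDA2R without panobinostat replicate 3 (adjusted p = 0.0615).

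**Figure D2:**
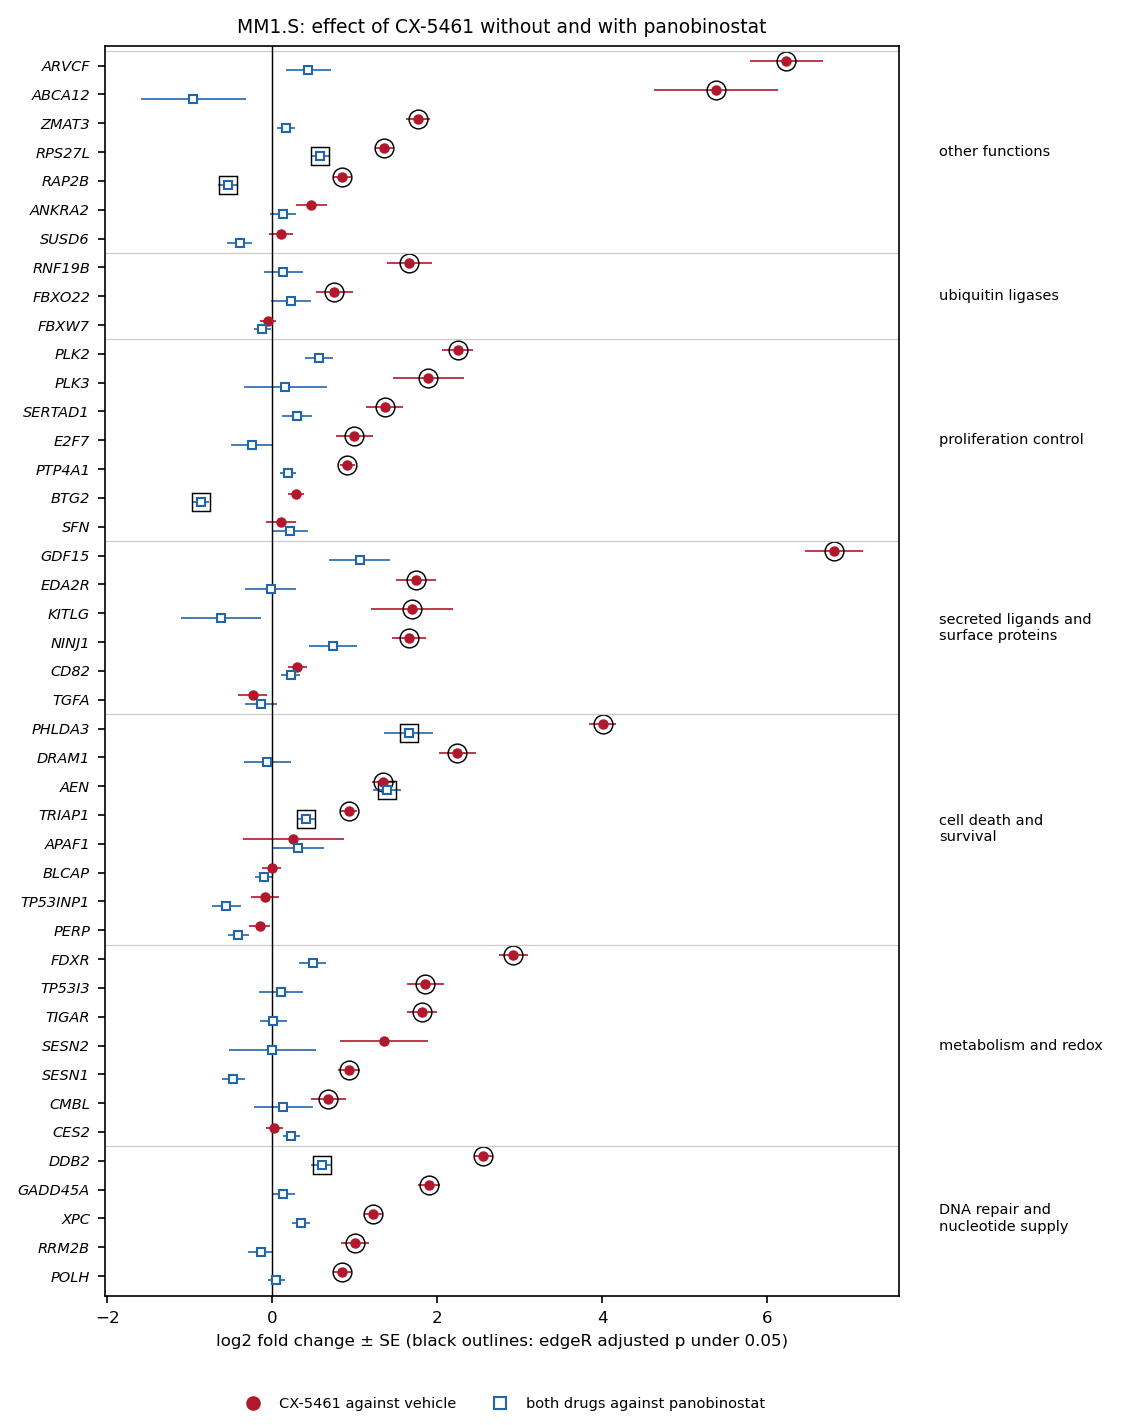
Log2 fold change ± SE (horizontal axis) of CX-5461 against vehicle (red circles) and of both drugs against panobinostat (open blue squares) in MM1.S, for the 43 tested members grouped by function, with black outlines where the edgeR adjusted p was under 0.05. Red circles are outlined for 30 members, all to the right of 0, and blue squares for 7, and the 2 symbols of AEN nearly coincide.

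In JJN3, CX-5461 alone moved no p53 target past the test. Of 37 tested members 0 were called by edgeR and 0 by DESeq2, and 1 had an unadjusted p under 0.05. The background was the same, 0.0% of 11411 genes called by edgeR, with 633 (5.55%) at an unadjusted p under 0.05 and 18 called by DESeq2. CMBL, PHLDA3, SPATA18, GDF15, LIF, TGFA, EDA2R, SFN, PLK2 and ARVCF had too few counts in this line. DDB2 had 26.1, 20.0 and 34.5 CPM with vehicle and 29.8, 25.8 and 38.9 with CX-5461, while FDXR had 15.7, 7.83 and 16.7 with vehicle and 11.9, 6.84 and 16.6 with CX-5461. AEN had 50.0, 87.0 and 94.8 CPM with vehicle and 41.1, 96.4 and 77.1 with CX-5461. In each of these genes, which rose in MM1.S, the JJN3 groups overlapped. Within each replicate number DDB2 was higher and FDXR lower with CX-5461, while AEN went both ways. None of these genes passed with the replicate block either (edgeR adjusted p = 0.498 for DDB2, 0.752 for FDXR and 0.687 for AEN). ZMAT3 had 27.1, 31.3 and 23.9 CPM with vehicle and 35.5, 45.2 and 32.5 with CX-5461, without overlap (0.46 ± 0.16, adjusted p = 0.765). With the replicate block ZMAT3 passed (adjusted p = 0.0412) as the single member, where 1.38% of all genes were called.

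**Figure D3:**
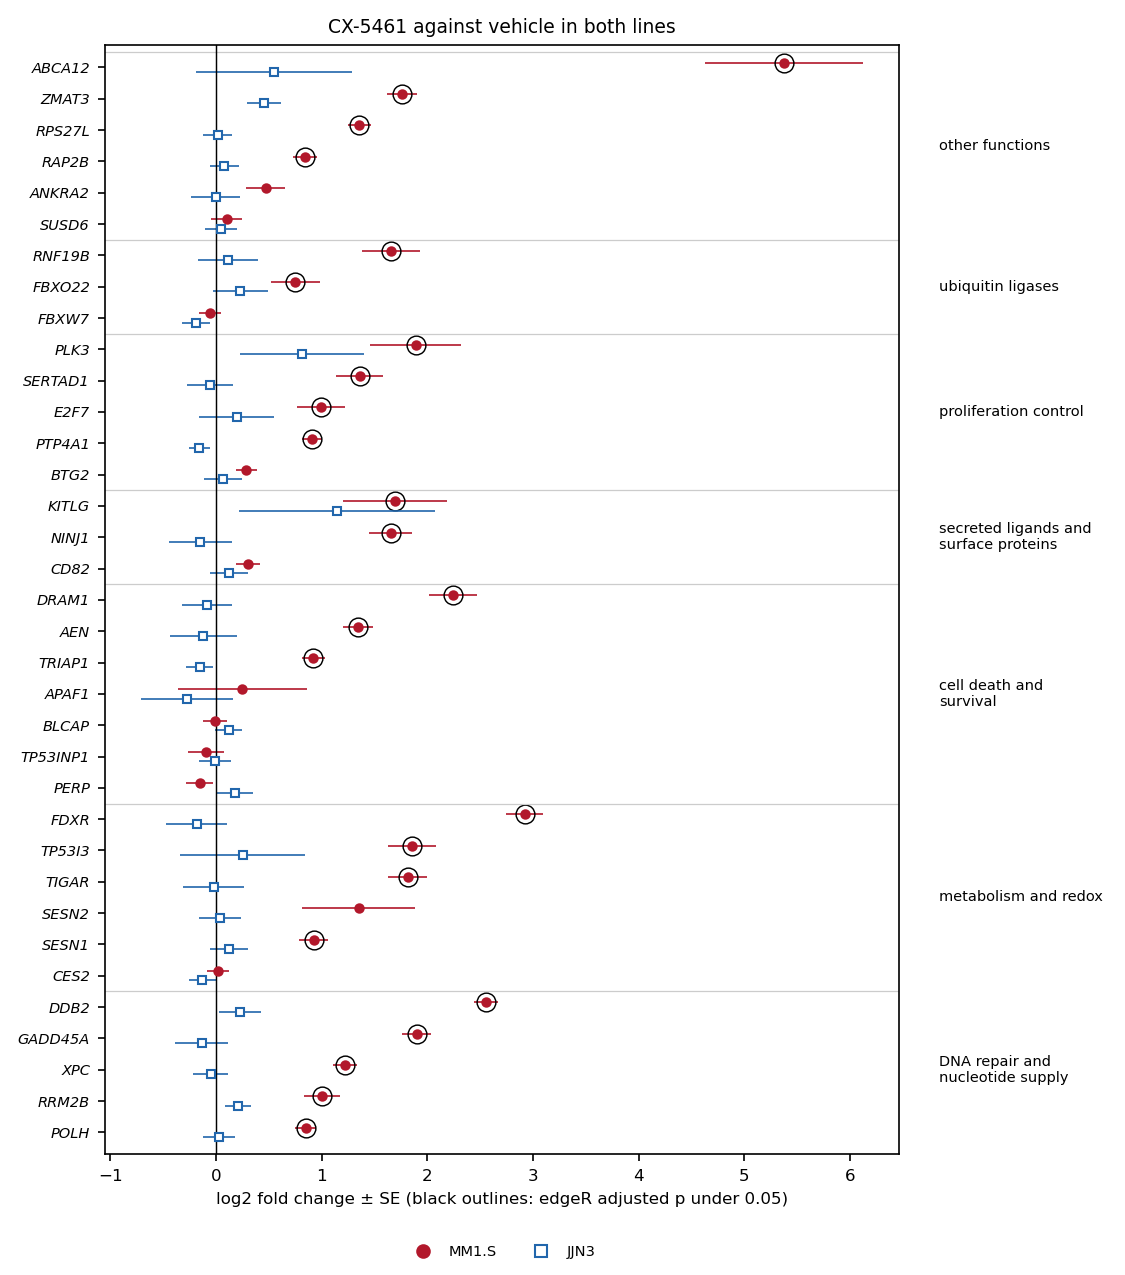
Log2 fold change ± SE (horizontal axis) of CX-5461 against vehicle in MM1.S (red circles) and JJN3 (open blue squares), for the 35 members tested in both lines, grouped by function, with black outlines where the edgeR adjusted p was under 0.05. No blue square is outlined.

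The effect of CX-5461 itself differed between the lines for 21 of 45 members in 1 fit over 24 libraries, in each case lower in JJN3, where 1.32% of all genes were called, 0.287% higher and 1.03% lower in JJN3. The medians of the difference were -1.07 for members and -0.01 for genes. The difference was -3.10 ± 0.37 for FDXR (adjusted p = 1.37e-05), -2.33 ± 0.23 for DDB2 (adjusted p = 6.05e-08), -2.32 ± 0.34 for DRAM1 and -2.03 ± 0.32 for GADD45A. It was -4.36 ± 0.81 for PHLDA3 and -5.53 ± 1.19 for GDF15, genes near 0 in JJN3, and these calls were lost without JJN3 vehicle replicate 3 (adjusted p = 0.102) and vehicle replicate 1 (adjusted p = 0.134). All 5 repair genes were among the 21. AEN was at -1.46 ± 0.38 and did not pass (adjusted p = 0.0731), but it did without JJN3 vehicle replicate 1 or CX-5461 replicate 2 (adjusted p = 0.0265 and 0.0343). With the block of replicate number within line 23 members were called, where 4.52% of all genes were, all 23 lower in JJN3: AEN (adjusted p = 1.53e-08) and SESN1 (adjusted p = 0.0159) were added.

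In JJN3 panobinostat moved a share of the members near that of all genes. Of 37 tested members 9 rose and 1 fell (27.0% called), where 26.0% of all genes were called, 15.0% higher and 10.9% lower. With the replicate block 13 rose and 3 fell, where 41.9% of all genes were called, GADD45A, EPHA2, CD82 and PERP being added to those that rose and AEN and NINJ1 to those that fell. Without panobinostat replicate 1 only 5 members were called, and without vehicle replicate 3 or panobinostat replicate 3 there were 6. FDXR rose from 15.7, 7.83 and 16.7 to 28.7, 22.5 and 30.9 CPM (1.02 ± 0.27, adjusted p = 0.012). ZMAT3 rose to 44.1, 53.8 and 44.4 CPM (0.79 ± 0.16, adjusted p = 0.00168). TP53INP1 rose from 113, 163 and 131 to 209.9, 249 and 216 CPM (0.73 ± 0.15). In these 3 genes all treated libraries were above all vehicle libraries, and the calls held with any 1 library left out. TRIAP1 fell from 112, 90.7 and 110.5 to 67.7, 64.9 and 52.7 CPM (-0.76 ± 0.13). RRM2B at 52.3, 53.4 and 48.8 CPM, RAP2B at 93.2, 83.4 and 99.1 and BLCAP at 54.5, 51.4 and 47.1 rose by 0.36 to 0.46, and SESN1, KITLG and PGF by 0.53 to 2.33, but these 6 calls were each lost without 3 to 7 of the libraries (adjusted p up to 0.183). KITLG and PGF reached the count cut-off only in the 2 JJN3 groups given panobinostat, so that their being tested already required a difference.

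Both drugs together raised 13 of the 37 members and lowered 2 in JJN3 (40.5% called), where 39.2% of all genes were called, 21.0% higher and 18.2% lower, so the share of members was near that background. With the block 16 rose and 6 fell, where 53.5% of all genes were called, RNF19B, CD82 and PERP being added to those that rose and AEN, NINJ1, FBXW7 and PTP4A1 to those that fell. EPHA2 and ABCA12, counted among the 13, and PLK3, not called, reached the count cut-off in 1 JJN3 group each, so that their being tested already required a difference. KITLG, also among the 13, reached it only in the 2 groups given panobinostat. EPHA2 had counts of 3 with vehicle, 1 with CX-5461, 18 with panobinostat and 70 with both drugs, a ratio of 22.3 for both against vehicle (counting interval 7.31 to 111). By library it was at 0, 0 and 0.452 CPM with vehicle and 4.36, 2.75 and 4.33 with both. KITLG went from 0.996, 0 and 0.151 to 2.67, 1.57 and 4.50 CPM (2.97 ± 0.76, adjusted p = 0.00517). Both values rest on few reads, with every treated library above every vehicle library. ZMAT3 reached 61.2, 62.2 and 52.1 CPM (1.09 ± 0.16), FDXR 37.6, 32.8 and 32.4 (1.35 ± 0.27) and RRM2B 68.2, 68.9 and 65.3 (0.75 ± 0.12, adjusted p = 9.36e-05). RRM2B, BLCAP at 73.3, 62.4 and 62.8 CPM (0.74 ± 0.12) and TP53INP1 (0.81 ± 0.15) kept all treated libraries above vehicle. RAP2B at 106, 93.4 and 129 CPM rose by 0.72 ± 0.13. TIGAR at 10.5, 7.85 and 6.93 CPM, SERTAD1 at 29.5, 25.3 and 22.3, E2F7 at 11.0, 18.3 and 8.66 and SUSD6 at 48.8, 55.1 and 54.0 rose by 0.51 to 1.17. These 4 calls and that of ABCA12 were lost without 1 to 6 single libraries, E2F7 without replicate 2 of both drugs (adjusted p = 0.0683), SUSD6 without vehicle replicate 3 (0.0678), SERTAD1 without vehicle replicate 3 or replicate 1 of both drugs (up to 0.105), TIGAR without vehicle replicate 1 or replicate 1 of both drugs (up to 0.0995), and ABCA12 up to an adjusted p of 0.287. TRIAP1 at 70.2, 67.7 and 62.5 CPM (-0.64 ± 0.13) and BTG2 at 85.1, 103 and 87.1 (-0.64 ± 0.18) fell. Against CX-5461 alone the combination raised 12 members and lowered 2, where 34.4% of all genes were called, 18.8% higher and 15.6% lower, again near the members' share of 37.8%. EPHA2, tested through the group of both drugs alone, was among the 12, as was KITLG, tested through the groups given panobinostat. With the block 13 rose and 3 fell, where 49.0% of all genes were called: PGF was added to those that rose (adjusted p = 0.159, or 0.0365 with the block) and AEN to those that fell (adjusted p = 0.218, or 0.000902).

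**Figure D4:**
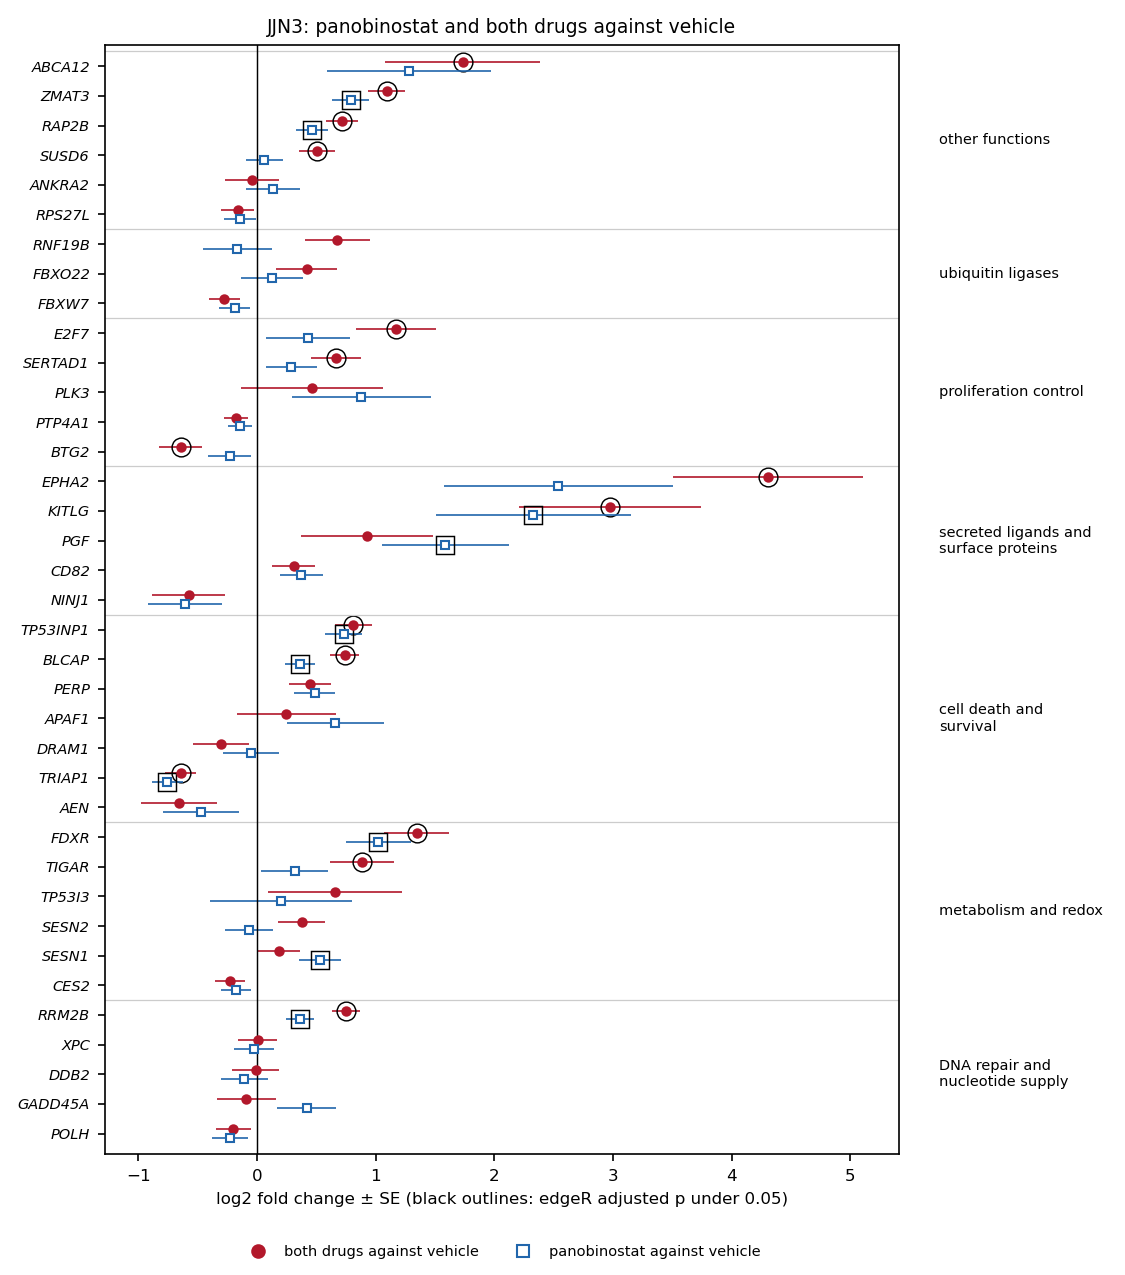
Log2 fold change ± SE (horizontal axis) of both drugs against vehicle (red circles) and of panobinostat against vehicle (open blue squares) in JJN3, for the 37 tested members grouped by function, with black outlines where the edgeR adjusted p was under 0.05. Outlined symbols lie mostly to the right of 0, with TRIAP1 and BTG2 to the left, and both comparisons share the vehicle libraries.

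Adding CX-5461 to panobinostat in JJN3 gave 0 called members of 37 by edgeR and 0 by DESeq2, where 0.903% of all genes were called by edgeR, 0.184% higher and 0.719% lower. At an unadjusted p under 0.05 there were 9 members, where 14.1% of all genes were. With the replicate block 6 members rose and 2 fell, where 12.3% of all genes were called: BLCAP, RNF19B, E2F7, EPHA2, RRM2B and SUSD6 were higher, and GADD45A and BTG2 lower. EPHA2 reached the count cut-off in the group of both drugs alone, so that its being tested already required a difference. RRM2B had 52.3, 53.4 and 48.8 CPM with panobinostat and 68.2, 68.9 and 65.3 with both, groups that did not overlap (0.39 ± 0.12, adjusted p = 0.125, or 0.0123 with the block). GADD45A had 272, 398 and 235 CPM with panobinostat and 191, 264 and 180.1 with both, and in both groups replicate 2 was the highest. RNF19B had 3.02, 3.86 and 4.82 CPM with panobinostat and 6.61, 7.06 and 7.27 with both, without overlap. Departure from additivity was called for 0 members by edgeR, by DESeq2 and with the block, where 0.0%, 18 genes and 0.92% of all genes were called in turn. At an unadjusted p under 0.05 there were 0 members, where 4.94% of all genes were.

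The effects of panobinostat differed between the lines for 16 of 45 members, 6 higher and 10 lower in JJN3, where 33.3% of all genes were called, 18.9% higher and 14.4% lower. For the combination it was 17, with 9 higher and 8 lower, where 32.8% of all genes were called, 18.8% higher and 14.0% lower. These shares are near the background, and the genes are given for their own values. With the block 17 members differed for panobinostat, where 40.9% of all genes were called, PGF being added. For the combination 22 did, 11 in each direction, where 40.4% of all genes were called: SESN1 and KITLG were added above 0 and GADD45A, FDXR and RPS27L below. TP53INP1 moved in opposite directions: in MM1.S it went from 197, 196 and 234 CPM to 82.1, 156 and 124 with panobinostat and 69.2, 96.1 and 80.4 with both drugs (-0.79 ± 0.17 and -1.35 ± 0.18), while it rose in JJN3. The difference between the lines was 1.54 ± 0.24 for panobinostat (adjusted p = 1.17e-05) and 2.18 ± 0.24 for the combination (adjusted p = 5.62e-08). The effect of both drugs on SUSD6 was higher in JJN3 than in MM1.S as well (difference 0.88 ± 0.22, adjusted p = 0.00288). AEN, which fell with panobinostat in MM1.S, had 50.0, 87.0 and 94.8 CPM with vehicle and 40.2, 63.9 and 63.8 with panobinostat in JJN3, lower within each replicate number (-0.47 ± 0.32, adjusted p = 0.307, or 0.00275 with the block). Its effect differed between the lines by 2.67 ± 0.41 (adjusted p = 4.88e-05). PERP, which also fell in MM1.S, had 52.8, 65.4 and 39.3 CPM with vehicle and 60.0, 84.2 and 76.2 with panobinostat in JJN3 (0.49 ± 0.18, adjusted p = 0.05, just over the threshold, or 0.00204 with the block), and the difference between the lines was 1.50 ± 0.22. ZMAT3 rose in both lines and by less in JJN3 (difference -2.28 ± 0.21).

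Without drug the lines already differed in these genes. Of 45 tested members 15 were higher and 22 lower in JJN3 than in MM1.S (82.2% called), where 63.7% of all genes were called, 30.2% higher and 33.5% lower. With the block 38 were called, where 69.0% of all genes were, DDB2 and FDXR being added as lower in JJN3 and SESN2 lost. Scaled over both lines together, PHLDA3 had 13.4, 17.3 and 27.8 CPM in MM1.S and 0.599, 0.180 and 0.759 in JJN3 (-5.17 ± 0.33). PERP had 456, 391 and 364 CPM in MM1.S and 52.9, 64.7 and 39.6 in JJN3 (-2.95 ± 0.17), and AEN had 147, 193 and 203 CPM in MM1.S and 50.1, 86.2 and 95.7 in JJN3 (-1.22 ± 0.27). These 3 genes were lower in JJN3 without overlap. Of the 8 tested genes of cell death and survival 5 were lower in JJN3, TP53INP1 and BLCAP among them, and 3 were higher: DRAM1, at a mean of 4.94 CPM in MM1.S and 11.1 in JJN3, APAF1, at a mean of 0.732 and 2.95 CPM, and TRIAP1. EDA2R had no count in any JJN3 vehicle library, beside 3.30, 4.81 and 6.78 CPM in MM1.S. GADD45A had 35.5, 36.5 and 48.3 CPM in MM1.S and 184, 310.4 and 181 in JJN3 (2.48 ± 0.24). RRM2B had 9.56, 9.40 and 10.4 CPM in MM1.S and 36.8, 39.5 and 43.7 in JJN3 (2.03 ± 0.14), and ZMAT3 had 6.78, 7.87 and 8.76 CPM in MM1.S and 27.2, 31.0 and 24.1 in JJN3 (1.81 ± 0.16). These 3 genes were higher in JJN3, again without overlap. Targets of p53 were thus found on both sides, and DDB2, with 33.7, 29.9 and 34.9 CPM in MM1.S and 26.2, 19.8 and 34.8 in JJN3, overlapped between the lines. As each line is 1 line with its own count table, line, p53 state and handling cannot be told apart here.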

How the data were processed

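Libraries of 2 myeloma lines were grouped by title into 8 groups of 3. The authors deposited 2 tables of raw counts per NCBI Gene identifier, one per line. The submitters' processing notes name HISAT2 2.2.1, featureCounts 2.0.1, limma 3.50.0 and the build hg19, with no role given; the strand setting and the annotation were not given in the sources used here, so reads of overlapping or antisense genes cannot be told apart. Of 28395 identifiers 27745 matched a symbol, and the other 650 held at most 0.0387% of a library.

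Counts were tested in R 4.3.3 with the edgeR 4.0.16 quasi-likelihood test (TMM scaling, filterByExpr, robust dispersion, Benjamini-Hochberg adjustment over all genes tested), in 1 fit of 12 libraries per line (12030 genes in MM1.S, 11411 in JJN3) and 1 fit of 24 (12872 genes) for differences between lines. Spread between replicates, as edgeR's common biological coefficient of variation, came to 0.107 (MM1.S) and 0.154 (JJN3). CPM are counts divided by library size times TMM factor. Counts over a group give intervals for counting error alone, at 95% (exact binomial), and a count of 0 allows 3. The test was checked on simulated data in which few genes changed, equally in both directions, with no effect shared by replicate number. Comparisons in which most genes moved were not simulated.

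JJN3 libraries sharing a replicate number across groups deviated together from their group means (Pearson's r 0.201 to 0.485 over 18 pairs, a description from the data), whereas MM1.S libraries did not in every pair (-0.0474 to 0.29), so the replicate block is given beside the counts of called members that it moves in JJN3 and, as replicate number within line, between the lines.

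Alternatives were RLE size factors, library size alone, no filter, DESeq2 1.42.0, the replicate block and leaving out each library. The members, their roles, the other lists and the rule for named genes were chosen with earlier results of these data known. The rule named, per role, up to 3 members with the smallest p for CX-5461 in MM1.S, up to 2 with opposite effects of the drugs or a called departure, up to 2 called in JJN3, and the member with the highest level among those not called with CX-5461 in MM1.S.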

Additional observations from a re-analysis of the deposited data

Results flagged for a closer look

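Each result here was picked out because the effect of a drug differed between the lines by a test of the difference itself, an interaction term in the fit of all 24 libraries (edgeR, adjusted p under 0.05). Each p53 state is represented by 1 line, so line and p53 state cannot be told apart.

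For CX-5461 this held for 21 of 45 members, where 1.32% of all genes were called, all with a lower effect in JJN3. On the log2 scale, JJN3 minus MM1.S, the repair and nucleotide genes DDB2 (-2.33), GADD45A (-2.03), XPC (-1.27), POLH (-0.81) and RRM2B (-0.79) were among them. The metabolic genes FDXR (-3.10) and TIGAR (-1.84), and the death and survival genes PHLDA3 (-4.36), DRAM1 (-2.32) and TRIAP1 (-1.07) differed as well. So did the ligand and surface genes GDF15 (-5.53), PGF (-6.30) and NINJ1 (-1.80), the proliferation genes SERTAD1 (-1.41) and PTP4A1 (-1.06), and the ligase RNF19B (-1.54). Of the remaining functions ARVCF (-6.74), ABCA12 (-4.82), RPS27L (-1.33), ZMAT3 (-1.30) and RAP2B (-0.76) differed. The values of ARVCF, PGF, ABCA12, GDF15 and PHLDA3 rest on groups with few or no counts and depend on the small count the fit adds.

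For panobinostat 16 members differed (35.6%), a share near the 33.3% of all genes. AEN (2.67), TP53INP1 (1.54) and PERP (1.50) had a higher effect in JJN3 and ZMAT3 (-2.28) a lower one. For both drugs 17 differed (37.8%), near the 32.8% of all genes, among them TP53INP1 (2.18) and SUSD6 (0.88).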

How the results depend on the processing

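Over all comparisons 289 calls of members were made. Losses under another scaling, test, filter or block came to 35, where a call lost under several of these is counted once for each. Of the 289 calls 66 were lost without at least 1 library, and 1 changed direction. That 1 was SESN2 between the untreated lines (-1.08 with all libraries), which was 0.096 without MM1.S vehicle replicate 2 and -1.41 without replicate 1. The departure of AEN, not called, lay near 0 and changed sign, at -0.0031 with library size alone and between -0.13 and 0.17 without single libraries. Adding CX-5461 to panobinostat in MM1.S called 7 members, and 14 with no filter, 11 by DESeq2 and 12 with the replicate block, where MM1.S samples share only a number. In JJN3 the replicate block gave 1 called member for CX-5461, 16 for panobinostat and 8 for CX-5461 added to panobinostat, for which no filter gave 2. Leaving out single libraries moved the count for CX-5461 added to panobinostat in MM1.S between 5 and 13, and for panobinostat in JJN3 between 5 and 11; the other counts stayed within 1.5 times of their value under each alternative. Over all genes, the replicate block moved the calls in MM1.S from 491 to 925 for CX-5461 added to panobinostat and from 664 to 1023 for departure from additivity. In JJN3 it moved them from 0 to 157 for CX-5461, from 2964 to 4784 for panobinostat, from 103 to 1399 for CX-5461 added to panobinostat and from 0 to 105 for departure, and between lines from 170 to 582 for the effect of CX-5461. With no filter these JJN3 counts were 31 for CX-5461, 439 for CX-5461 added to panobinostat and 46 for departure, and the difference between lines had 310, while DESeq2 gave 18, 264 and 18 in JJN3. Without single libraries CX-5461 added to panobinostat gave 175 to 1177 genes in MM1.S and 0 to 156 in JJN3, departure in MM1.S gave 415 to 1042, panobinostat in JJN3 gave 1957 without its replicate 1, and the difference between lines gave 108 without MM1.S vehicle replicate 1. Scaling by library size alone moved the median gene from 0.07 to 0.20 for panobinostat and from 0.06 to 0.24 for both drugs in MM1.S, and from 0.00 to 0.12 for both drugs in JJN3. Members that reached the count cut-off in too few libraries, in MM1.S SPATA18, LIF, PGF and EPHA2, were not tested, and a count of 0 over a group of 3 libraries allows up to 0.146 to 0.190 CPM.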
